A study of Homo sapiens with 12 samples.

Results

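The genes described here are 9 members of the NRF2 antioxidant pathway, namely NFE2L2, KEAP1, GCLC, GCLM, TXNRD1, SRXN1, NQO1, ME1 and OSGIN1. They were taken by symbol from an expression table of 20263 genes, and heme oxygenase 1 (HMOX1) was kept apart as the check of the hemin labels, with its values beside some results. All 9 passed the filter on low counts that left 14287 genes for testing. RNA-seq was performed on total RNA of wild-type A375 cells, an established human melanoma line. The 4 groups of 3 libraries were cells without either agent (Ctrl), cells treated with DdBIC (spelled DBIC in the labels), cells treated with Hemin, and cells treated with both (DdBIC+Hemin). DdBIC is a benzimidazole carboxylate ester with a dodecyl chain that acts through the nuclear receptor Nur77 and induces pyroptosis, and hemin is a soluble form of heme that was used to ask whether supplying heme changes the response to DdBIC. The paper gives doses and times of DdBIC and a dose of hemin for its other assays, but ties none to these libraries. The methods speak of independent experiments for the study in general, while neither they nor the labels say of these libraries in particular that the 3 of a group came from separate cultures. If they did not, p-values measure only technical spread.

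NRF2, the protein encoded by NFE2L2, is a basic leucine zipper transcription factor that pairs with a small MAF protein (MAFF, MAFG or MAFK) on the antioxidant response element (ARE) of its target genes. In unstressed cells KEAP1 holds NRF2 and presents it to a CUL3 ubiquitin ligase for degradation, and oxidants or electrophiles that modify KEAP1 let NRF2 accumulate. BACH1 is a repressor of the same elements that binds heme and then leaves DNA. Control of NRF2 is therefore largely at the protein level, which was not measured here. The targets described below make glutathione (GCLC, GCLM), run the thioredoxin and peroxiredoxin systems (TXNRD1, SRXN1), detoxify quinones (NQO1), supply NADPH (ME1) or act in cell death and growth control (OSGIN1).

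NRF2 acts on its target genes through the ARE, so the promoter windows of the 9 genes were searched on both strands for the core TGACNNNGC. The RefSeq windows (GRCh38.p14) ran from 250 bases before to 50 bases after each annotated start. All 9 genes had a window, 12 windows in all, and 5 of the 12 windows, belonging to 4 genes (GCLM, TXNRD1, KEAP1 and ME1), held the core. Of the 35116 windows of all genes, 13.3% held it. The matches that lie wholly upstream of a start are printed with 10 bases on each side, read 5′ to 3′ on the strand that carries the motif, with the core in capitals.
GCLM (chr1:93909446-93909474, plus strand, opposite to the gene): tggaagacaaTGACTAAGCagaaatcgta
TXNRD1, first start (chr12:104215670-104215698, plus strand): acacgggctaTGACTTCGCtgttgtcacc
TXNRD1, second start (chr12:104286920-104286948, minus strand, opposite to the gene): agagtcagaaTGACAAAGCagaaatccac
KEAP1, second start (chr19:10502807-10502835, minus strand): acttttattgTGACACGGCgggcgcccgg
KEAP1, second start (chr19:10502784-10502812, plus strand, opposite to the gene): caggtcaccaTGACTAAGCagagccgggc
ME1 (chr6:83431170-83431198, minus strand): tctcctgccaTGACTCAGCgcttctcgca
The ME1 core overlaps the AP-1 motif TGACTCA, which was present in 4.9% of all windows. Among the members' windows that motif was also found in the one of OSGIN1, which holds no ARE core, printed here with the motif in capitals.
OSGIN1 (chr16:83953133-83953159, plus strand): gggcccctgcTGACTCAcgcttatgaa
No match of the core was found in the windows of NFE2L2, GCLC, NQO1, SRXN1 and OSGIN1, which says only that these letters are not within these bases. A match is a description and is no measure of binding.

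Libraries held 37951275 to 44358912 counts each, and 3 counts correspond to 0.0684 to 0.0784 CPM (counts scaled to library size). Levels are given as CPM after TMM scaling, and differences as log2 fold changes from edgeR's quasi-likelihood fit over the 12 libraries with Benjamini-Hochberg adjustment over the 14287 genes, called past an adjusted p of 0.05. Within groups, log2 CPM correlated across genes at 0.985 to 0.988, and 0 pairs of libraries were identical. HMOX1 stood at 7.99 to 9.19 CPM in the Ctrl libraries, 7.26 to 8.73 in the DdBIC libraries, 61.9 to 65.5 in the hemin libraries and 146 to 188 in the libraries with both agents, so each library labelled with hemin was above each library without it. Of 7 melanocyte lineage markers, SOX10 reached 548 to 769 CPM, MITF 8.31 to 21.5 and S100B 6.59 to 12.7, while PMEL, MLANA, TYR and DCT stayed at or below 1.11 CPM, so the pigmentation genes were near 0 in this line. The list's summed level was 736 to 797 CPM with DdBIC, 643 to 670.2 in Ctrl, 570.5 to 578 with hemin and 577 to 666 with both agents. This sum is nearly all SOX10, and S100B had the opposite order between DdBIC (7.38 CPM on average), Ctrl (9.47) and hemin (11.8). The part of these markers in the results below was not tested. The 3 leukocyte markers summed to 0.409 to 1.30 CPM with PTPRC at 0 in every library, and the 4 epithelial markers to 2.70 to 4.21 CPM, of which KRT14 gave 2.62 to 3.92 CPM. The 2 endothelial markers summed to 0.358 to 0.67 CPM in Ctrl, 0.575 to 0.784 with hemin, 0.922 to 1.24 with DdBIC and 0.964 to 1.74 with both. Of these, CDH5, averaging 0.387 CPM, was called higher than in Ctrl with DdBIC (2.14, edgeR adjusted p = 0.0211) and with both agents (2.16, 0.0480). PECAM1 was not called, and the part of this shift was not tested. The share of higher genes among all called genes depended on scaling. It was 53.8% in DdBIC against Ctrl, 42.4% in DdBIC+Hemin against DdBIC, 46.6% in Hemin against DdBIC and 38.5% in the interaction, and 40%, 59.2%, 60.8% and 55.4% in the same order with upper-quartile normalization. With library size only it was 42.3% in place of 54.6% in DdBIC+Hemin against Hemin, and 34.4% in place of 45.6% in DdBIC+Hemin against Ctrl. With limma on TPM it was 29.8% in DdBIC+Hemin against DdBIC, 26.5% in the interaction, 44.2% in DdBIC+Hemin against Hemin and 32% in DdBIC+Hemin against Ctrl. The median of all genes moved by under 0.1 on the log2 scale.

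With DdBIC alone, 0 of the 9 genes were called higher and NQO1 was called lower. Of all genes, 20.0% were called higher and 17.2% lower in that comparison. Hemin alone raised GCLM, where 1.47% of all genes were called higher. The cells with both agents had the highest mean levels of GCLM, SRXN1, NQO1, TXNRD1 and NFE2L2. Their step above hemin alone was called for GCLM and SRXN1, where 3.71% of all genes were called higher. It was not called for NQO1, TXNRD1 and NFE2L2 (edgeR adjusted p = 0.403, 0.711 and 0.732). The transcripts of the regulators NFE2L2 and KEAP1 and of ME1 did not pass the threshold in any of the 7 comparisons. Each comparison by itself called 4.06% to 39.6% of all genes.

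NFE2L2 (ENSG00000116044, chromosome 2, 177227595 to 177392697, minus strand, GRCh38) was at 45.6, 76.5 and 75.5 CPM in the Ctrl libraries and at 106, 43.3 and 61.9 in the DdBIC libraries. It was at 77.5, 77.2 and 45.7 CPM with hemin and at 81.9, 82.8 and 78.1 with both agents. One Ctrl, one DdBIC and one hemin library were low, 1 DdBIC library was high, and only the 3 libraries with both agents lay close together. The range within the DdBIC group was 1.29 on the log2 scale, and 2.86% of 10678 genes averaging 5 CPM or more had a larger range within any group. The log2 difference of DdBIC against Ctrl was 0.10 with a 95% confidence interval from -0.68 to 0.87 (edgeR adjusted p = 0.857). Leaving out 1 library turned its direction, to -0.33 without DdBIC replicate 1 and -0.11 without Ctrl replicate 1, with 0.35 as the highest value (without DdBIC replicate 2). DdBIC+Hemin against Ctrl gave 0.30 (interval -0.48 to 1.07, edgeR adjusted p = 0.658). The annotated exons of NFE2L2 share 0.9% of their bases with AGPS on the opposite strand and 17.6% with a sense-overlapping transcript. AGPS had 2437 to 3110 counts per library, against 1747 to 4123 for NFE2L2. Whether reads were assigned by strand is not given in the sources used here, and the part of overlap in the spread of NFE2L2 was not tested.

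KEAP1 (ENSG00000079999, chromosome 19, 10486120 to 10503741, minus strand) was at 144, 143 and 133 CPM in Ctrl, at 178, 129.9 and 138 with DdBIC, at 129, 133 and 126 with hemin and at 137, 133 and 124 with both. A single DdBIC library stood above the other 11, and all pairs of neighbouring groups overlapped. The differences ranged from -0.20 on the log2 scale in Hemin against DdBIC (edgeR adjusted p = 0.135) to 0.09 in DdBIC against Ctrl (edgeR adjusted p = 0.520), the latter being -0.06 without DdBIC replicate 1. The first of these passed the threshold without DdBIC replicate 2 (-0.29, edgeR adjusted p = 0.0323) and under no other of the 20 alternatives. In order of mean level the groups were hemin, both agents, Ctrl and DdBIC, and none of the neighbours differed.

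GCLM, the modifier subunit of glutamate-cysteine ligase, the rate-limiting enzyme of glutathione synthesis, showed the widest range of group means among the 9 genes. GCLM (ENSG00000023909, chromosome 1, 93885205 to 93909456, minus strand) was at 59.4, 50.6 and 49.8 CPM in Ctrl and at 54.8, 57.0 and 58.0 with DdBIC. It was at 93.7, 76.9 and 74.2 CPM with hemin and at 103, 104 and 103 with both agents. The Ctrl and DdBIC libraries overlapped, the hemin libraries were all above them, and the libraries with both agents were above the hemin libraries. The rise with hemin was 0.62 on the log2 scale (SE 0.087, edgeR adjusted p = 0.00253), and that with both agents over Ctrl was 0.96 (SE 0.087, edgeR adjusted p = 4.2e-05), to 103 ± 0.486 CPM from 53.3 ± 5.35 (SD, n = 3). Adding hemin to DdBIC raised GCLM by 0.87 (SE 0.087, edgeR adjusted p = 2.33e-05). These 3 calls held in all 20 alternatives. Adding DdBIC to hemin raised it by 0.34 (SE 0.086, edgeR adjusted p = 0.0381), a call that held in 9 of 20 alternatives, whose adjusted p ran from 0.00368 to 0.133. It was lost without hemin replicate 2 (0.30, adjusted p = 0.128) or 3 (0.28, 0.133), without any DdBIC+Hemin library (0.34, adjusted p 0.0917 to 0.101) and without any DdBIC library (0.34, adjusted p 0.0557 to 0.0568).

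GCLC, the catalytic subunit of the same enzyme, did not follow GCLM. GCLC (ENSG00000001084, chromosome 6, 53497341 to 53616970, minus strand) was at 51.7, 54.3 and 53.4 CPM in Ctrl and at 59.45, 55.2 and 57.0 with DdBIC. It was at 31.7, 46.1 and 47.2 CPM with hemin and at 53.1, 50.6 and 52.5 with both agents. The hemin libraries were the lowest, 1 of them well below the other 2, and the DdBIC libraries were the highest. The log2 difference of Hemin against Ctrl was -0.35 (SE 0.119, edgeR adjusted p = 0.153), which passed the threshold only with DESeq2 (adjusted p = 0.0497) and was -0.19 without hemin replicate 1, the low library. DdBIC+Hemin against DdBIC gave -0.14 (edgeR adjusted p = 0.429), and -0.14 with an adjusted p of 0.0289 when hemin replicate 1 was left out. Between the highest and the lowest group, DdBIC and hemin, the difference was called (hemin lower by 0.46, SE 0.119, edgeR adjusted p = 0.0108), in 19 of 20 alternatives and not in the fit of these 2 groups alone (adjusted p = 0.0686). Its size without hemin replicate 1 was -0.29, still called, and -0.56 without hemin replicate 3.

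Per transcript length, GCLM and GCLC were in Ctrl at 24.9 ± 2.42 and 31.1 ± 0.752 TPM (SD, n = 3). The ratio of GCLM to GCLC in TPM was 0.900, 0.747 and 0.751 in the Ctrl libraries and 0.659, 0.779 and 0.743 in the DdBIC libraries. It was 2.10, 1.30 and 1.18 with hemin and 1.41, 1.58 and 1.49 with both agents. All 6 libraries with hemin were above 1 and all 6 libraries without it were below 1. The ratio is given as a description without a test. Hemin replicate 1 had at once the highest GCLM and the lowest GCLC of its group.

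**Figure D1:**
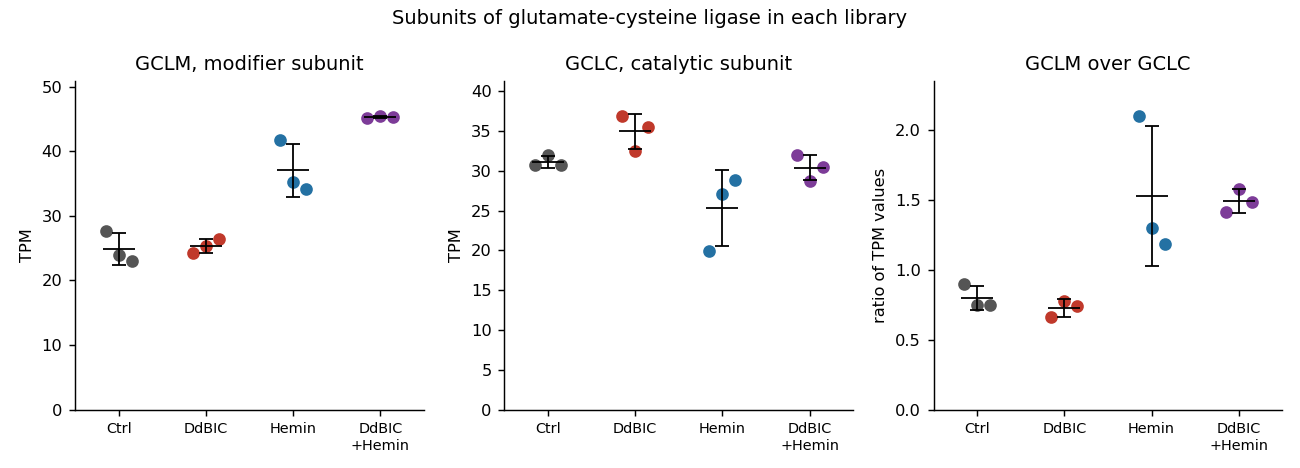
TPM of GCLM (left) and GCLC (middle) and the ratio of the 2 values (right) in the 12 libraries (points), with the group mean and SD (bars, n = 3); all axes start at 0. The ratio was 0.659 to 0.900 in the libraries without hemin and 1.18 to 2.10 in those with hemin.

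SRXN1 encodes sulfiredoxin, which restores overoxidized peroxiredoxins. SRXN1 (ENSG00000271303, chromosome 20, 646615 to 653370, minus strand) was at 117, 114 and 110.4 CPM in Ctrl, at 109.55, 111 and 113 with DdBIC, at 124, 121 and 119 with hemin and at 141, 138 and 134 with both agents. The Ctrl and DdBIC libraries overlapped, the hemin libraries were slightly above them, and the libraries with both agents were all above the rest. The spread was small, with a range within a group of at most 0.083 on the log2 scale. SRXN1 rose with both agents by 0.27 over Ctrl (SE 0.032, edgeR adjusted p = 0.000258), by 0.30 over DdBIC (SE 0.032, edgeR adjusted p = 3.42e-05) and by 0.18 over hemin (SE 0.032, edgeR adjusted p = 0.00593). Each of these held in all 20 alternatives. Hemin alone gave 0.09 over Ctrl (edgeR adjusted p = 0.164), and DdBIC alone -0.03 (edgeR adjusted p = 0.489), which was called lower only with upper-quartile normalization (-0.09, adjusted p = 0.0434). AL121758.1, a gene on the same strand, shares 85.0% of the exonic bases of SRXN1 but had 1 to 64 counts per library against 4255 to 5858 for SRXN1.

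TXNRD1, cytosolic thioredoxin reductase, keeps thioredoxin reduced at the expense of NADPH. TXNRD1 (ENSG00000198431, chromosome 12, 104215779 to 104350305, plus strand) was at 393, 253 and 390.1 CPM in Ctrl and at 334, 327 and 219 with DdBIC. It was at 389, 406 and 399 CPM with hemin and at 446, 466 and 425 with both agents. One Ctrl and one DdBIC library were low, and the libraries with both agents were above all others. The rise from DdBIC to both agents was 0.60 on the log2 scale (SE 0.190, edgeR adjusted p = 0.0377), to 446 ± 20.6 from 293 ± 64.1 CPM (SD, n = 3). The call held in 10 of 20 alternatives, with adjusted p-values from 0.00122 to 0.0967. Without DdBIC replicate 3, the low library, the rise was 0.44 (adjusted p = 0.0877). The call was also lost without any 1 of the DdBIC+Hemin libraries (0.57 to 0.64, adjusted p 0.0663 to 0.0967) or of the hemin libraries (0.60 to 0.61, adjusted p 0.0545 to 0.0547). None of the other comparisons of TXNRD1 was called, although Hemin against DdBIC (0.44, edgeR adjusted p = 0.0972) passed with DESeq2 (0.0224) and without Ctrl replicate 2 (0.0337), and its intervals were wide, as in DdBIC against Ctrl (-0.24, interval -0.66 to 0.19).

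NQO1 encodes a quinone reductase and is a classical NRF2 target. It had the highest level per transcript length of the 9 genes in Ctrl, 427 ± 26.3 TPM (SD, n = 3), ahead of TXNRD1 at 301 ± 58.1 and KEAP1 at 140.4 ± 10.3. NQO1 (ENSG00000181019, chromosome 16, 69706996 to 69726951, minus strand) was at 406, 391.8 and 396 CPM in Ctrl, at 339, 361 and 353 with DdBIC, at 412, 438 and 417 with hemin and at 430.2, 431 and 458 with both agents. The DdBIC libraries were below all others, and the hemin libraries were above Ctrl and overlapped those with both agents. NQO1 fell with DdBIC by 0.18 on the log2 scale (SE 0.035, edgeR adjusted p = 0.00197), from 398 ± 7.08 to 351 ± 11.05 CPM (SD, n = 3). It rose by 0.33 when hemin was added to DdBIC (SE 0.035, edgeR adjusted p = 4.33e-05). Both agents together exceeded Ctrl by 0.14 (SE 0.035, edgeR adjusted p = 0.0213), a call lost without Ctrl replicate 2 (0.13, adjusted p = 0.0747), Ctrl replicate 3 (0.14, 0.0684) or DdBIC+Hemin replicate 3 (0.11, 0.0632). Hemin alone gave 0.09 (edgeR adjusted p = 0.239).

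The unit mattered for NQO1. In TPM it was at 446, 437 and 397 in Ctrl, at 353, 465 and 399 with DdBIC, at 441, 569 and 430.2 with hemin and at 456, 465 and 555 with both, so that each pair of groups overlapped except Ctrl and DdBIC+Hemin, which stood apart. With limma on log2(TPM + 1), none of the NQO1 comparisons was called (DdBIC against Ctrl -0.08, adjusted p = 0.671, and DdBIC+Hemin against DdBIC 0.28, adjusted p = 0.137), whereas both calls held in the other 19 alternatives, which used counts. The count of NQO1 per unit of FPKM, relative to the median gene of a library, ran from 0.568 to 0.746, a factor of 1.31, with the lowest values in DdBIC replicate 2, hemin replicate 2 and DdBIC+Hemin replicate 3. These are the libraries with the high TPM values. The same factor was 1.32 for OSGIN1, with its lowest ratio in DdBIC+Hemin replicate 3, the library with its highest CPM, 1.16 for TXNRD1, at most 1.1 for NFE2L2, KEAP1, GCLC and GCLM, and 1.01 for SRXN1 and ME1. The annotated exons of NQO1 share 17.7% of their bases with an antisense transcript, whose part was not tested.

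**Figure D2:**
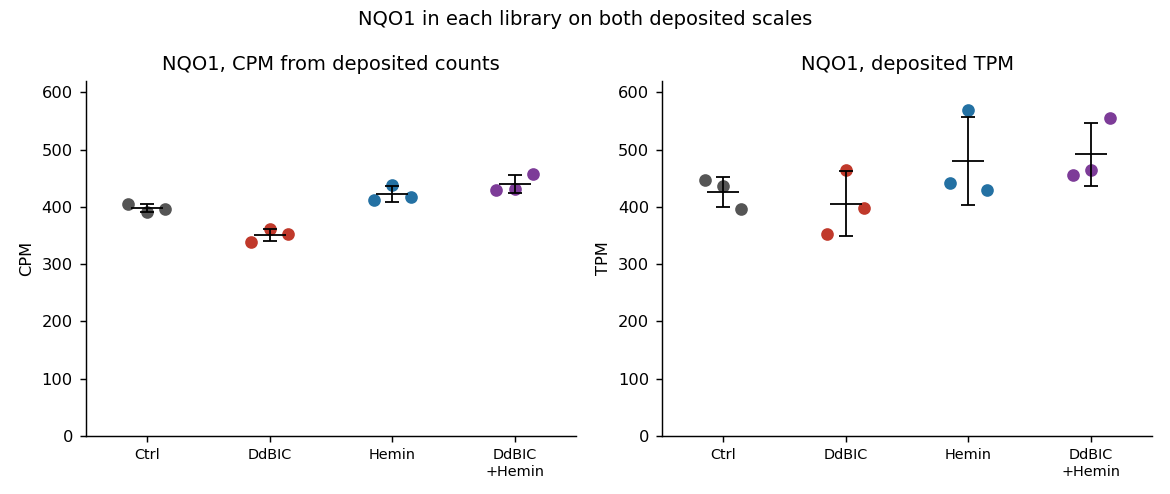
NQO1 in the 12 libraries (points) with the group mean and SD (bars, n = 3), as CPM from the deposited counts (left) and as deposited TPM (right), on the same vertical range from 0. In CPM the DdBIC libraries (339 to 361) were below the Ctrl libraries (391.8 to 406), and in TPM those 2 groups overlapped.

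ME1, cytosolic malic enzyme, supplies NADPH and was the most even of the 9 genes. ME1 (ENSG00000065833, chromosome 6, 83210389 to 83431071, minus strand) was at 38.3, 33.7 and 37.9 CPM in Ctrl, at 34.8, 32.9 and 36.6 with DdBIC, at 38.1, 35.9 and 35.3 with hemin and at 36.4, 36.6 and 34.2 with both. All groups overlapped, and the group means spanned 0.073 on the log2 scale. The intervals of all comparisons with Ctrl lay between -0.21 and 0.13. A change of ME1 larger than this was therefore outside the 95% intervals of these comparisons.

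OSGIN1, an oxidative stress-induced growth inhibitor, was the lowest of the 9 genes. OSGIN1 (ENSG00000140961, chromosome 16, 83948282 to 83966332, plus strand) was at 9.98, 8.99 and 8.49 CPM in Ctrl, at 8.73, 7.996 and 7.52 with DdBIC, at 10.3, 11.3 and 9.85 with hemin and at 9.51, 9.30 and 12.6 with both agents, from 318 to 554 counts per library. The DdBIC libraries were below those with hemin, and 1 library with both agents stood above the rest. DdBIC+Hemin exceeded DdBIC by 0.38 on the log2 scale (SE 0.122, edgeR adjusted p = 0.0366), in 14 of 20 alternatives with adjusted p-values from 0.0161 to 0.131. The value was 0.22 without DdBIC+Hemin replicate 3, the high library (adjusted p = 0.131), 0.37 without DdBIC replicate 2 (0.0813) and 0.33 without DdBIC replicate 3 (0.107). Neither agent alone moved it past the threshold against Ctrl (DdBIC -0.18, edgeR adjusted p = 0.282, and hemin 0.20, edgeR adjusted p = 0.481).

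DdBIC against Ctrl asks what the compound did by itself. Of the 9 genes, 0 were called higher and 1, NQO1, was called lower by edgeR, where 20.0% of the 14287 genes were called higher and 17.2% lower. The members' median log2 difference was -0.03, and that of all genes was -0.01. The 8 others were between -0.24 (TXNRD1) and 0.11 (GCLC) and did not pass the threshold, while 37.2% of all genes were called in either direction.

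Hemin against Ctrl asks what added heme did by itself. GCLM was called higher, the only call among the 9 genes, where 1.47% of all genes were called higher and 2.59% lower. The median of the 9 was 0.09 and that of all genes 0.00. Positive differences were seen for 6 members and negative ones for 3, with GCLC lowest at -0.35. Of all 14287 genes, 7262 had positive differences. HMOX1 rose by 2.86 in the same comparison (SE 0.102, edgeR adjusted p = 1.18e-07).

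DdBIC+Hemin against DdBIC asks what hemin changed in the presence of the compound. GCLM, TXNRD1, OSGIN1, NQO1 and SRXN1 were called higher, by 0.30 to 0.87 on the log2 scale, and 0 members were called lower, where 13.5% of all genes were called higher and 18.4% lower. The median of the 9 was 0.30, beside -0.01 for all genes. The calls of GCLM, SRXN1 and NQO1 held without each library in turn, and those of TXNRD1 and OSGIN1 did not, as given above. NFE2L2 itself differed by 0.20 (interval -0.57 to 0.97, with -0.05 without DdBIC replicate 2 and 0.62 without DdBIC replicate 1), KEAP1 by -0.18 (interval -0.40 to 0.04), GCLC by -0.14 and ME1 by 0.04, none of them called.

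DdBIC+Hemin against Hemin asks what the compound changed in cells supplied with hemin. GCLM and SRXN1 were called higher and 0 members lower, where 3.71% of all genes were called higher and 3.09% lower. Against Ctrl, the cells with both agents had GCLM, SRXN1 and NQO1 higher and 0 members lower, where 5.66% of all genes were called higher and 6.74% lower. The medians of the 9 genes were 0.16 and 0.20 in these comparisons, beside 0.00 and 0.00 for all genes. Hemin against DdBIC, used here to order the levels, had 4 members higher (NQO1, GCLM, SRXN1 and OSGIN1) and 1 lower (GCLC), where 18.4% of all genes were called higher and 21.2% lower. The OSGIN1 call in it was lost without DdBIC replicate 2 or 3 or hemin replicate 1 or 2 (0.32 to 0.39, edgeR adjusted p 0.0573 to 0.103). These comparisons share libraries with one another, so their calls are not independent.

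**Figure D3:**
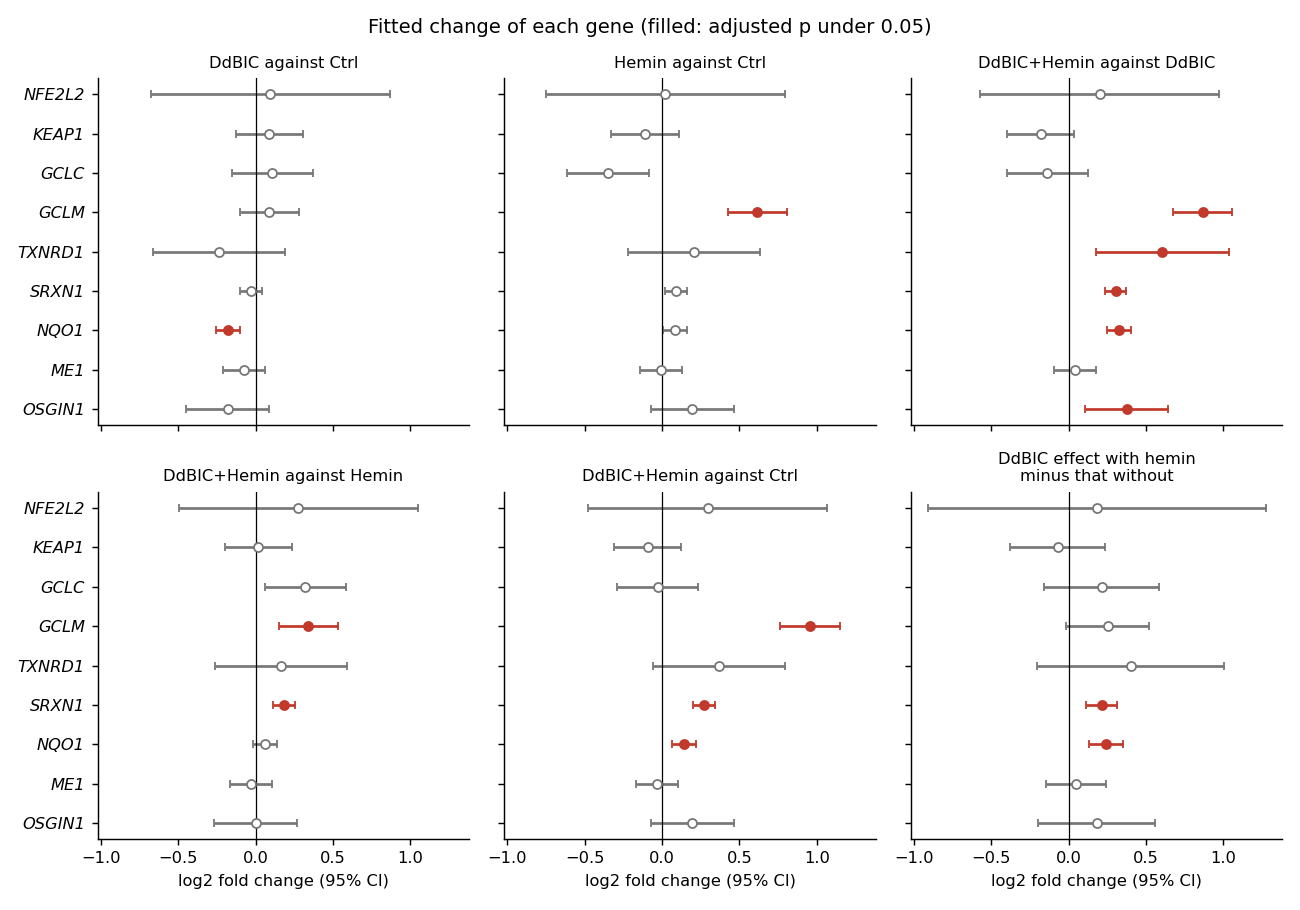
Log2 fold change (horizontal axis) of each of the 9 genes in 5 comparisons and in the interaction, with 95% confidence intervals from edgeR's fit; filled red points have an adjusted p under 0.05. Filled points are to the right of 0 except NQO1 in DdBIC against Ctrl (-0.18), and the widest intervals are those of NFE2L2.

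The interaction subtracts the log2 effect of DdBIC in cells not given hemin from its effect in cells given hemin, and tests whether the 2 agents combine additively on the log2 scale. It was called for NQO1 and SRXN1, both positive, and for 0 members in the negative direction, where 6.40% of all genes were called positive and 10.2% negative. DdBIC changed NQO1 by -0.18 without hemin and by 0.06 with it, a difference of 0.24 (SE 0.050, edgeR adjusted p = 0.00709) that held in 18 of 19 alternatives and was lost with limma on TPM (0.12, adjusted p = 0.741). DdBIC changed SRXN1 by -0.03 without hemin and by 0.18 with it, a difference of 0.21 (SE 0.045, edgeR adjusted p = 0.00785) that held in all 19. GCLM had a positive interaction of 0.25 that was not called (interval -0.02 to 0.52, edgeR adjusted p = 0.201) and was called only without hemin replicate 1 (0.36, adjusted p = 0.0273). Interactions were positive in 8 of the 9 members, with KEAP1 at -0.07, and in 6945 of all 14287 genes. The members' median was 0.21 beside -0.01 for all genes. The members share the same 12 libraries, so their signs are not independent. For HMOX1 the interaction was 1.57 (SE 0.137, edgeR adjusted p = 2.23e-05).

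**Figure D4:**
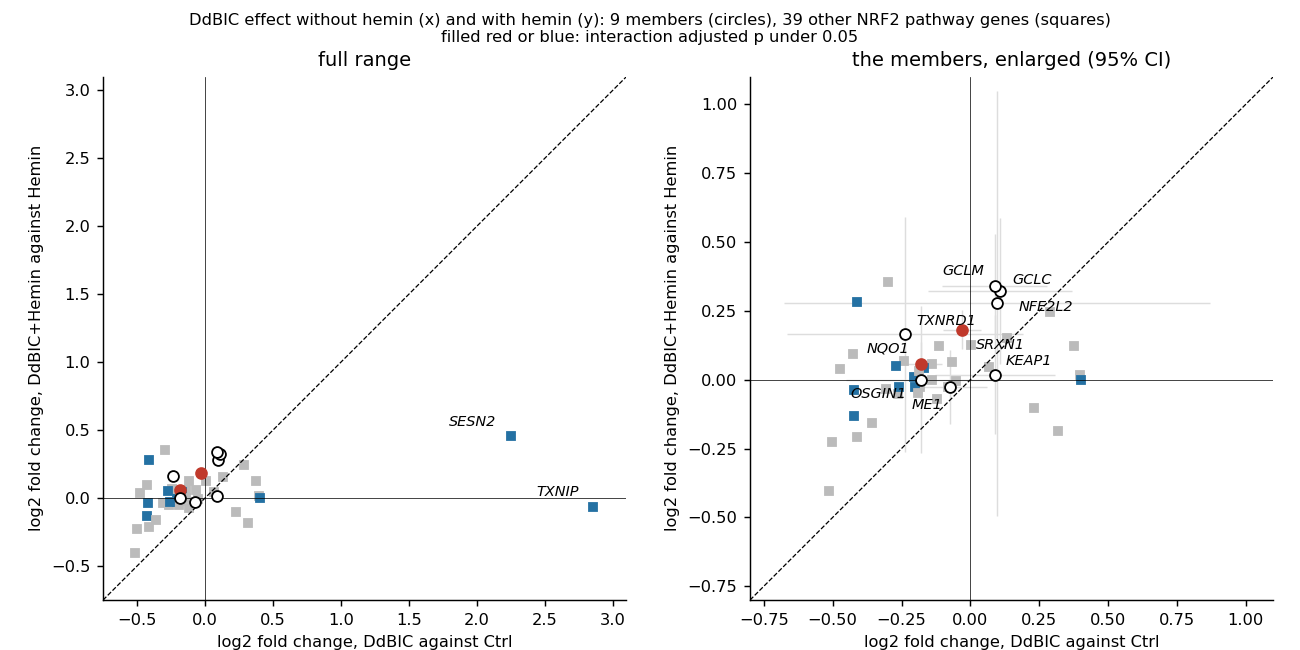
Log2 fold change of DdBIC without hemin (horizontal axis) and with hemin (vertical axis) for the 9 genes (circles) and 39 other NRF2 pathway genes (squares), over the full range (left) and enlarged with 95% confidence intervals of the 9 genes (right); the dashed line marks equal effects and filled red or blue marks an interaction with an adjusted p under 0.05. NQO1 and SRXN1 are above the line, and TXNIP and SESN2 are far below it.

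A wider list of 42 NRF2 pathway genes, of which 39 were tested (GPX2, AKR1B10 and ALDH3A1 were too low), gave the setting. With DdBIC alone, 6 of the 39 were called higher and 17 lower, with a median of -0.18, where 20.0% of all genes were called higher and 17.2% lower with a median of -0.01. The lower ones included GSTA4, a glutathione transferase (-0.51, edgeR adjusted p = 0.00578), BLVRB, a biliverdin reductase (-0.50, 0.00444), and ABCC2, an export pump for conjugates (-0.42, 2.3e-05). The higher ones included 2 genes that are also known from other stress pathways. TXNIP, an inhibitor of thioredoxin, rose from 30.4 ± 2.41 to 220.45 ± 34.1 CPM (SD, n = 3), by 2.86 on the log2 scale (SE 0.114, edgeR adjusted p = 2.43e-08). SESN2, sestrin 2, rose from 43.1 ± 2.34 to 205 ± 10.3 CPM (SD, n = 3), by 2.25 (SE 0.060, edgeR adjusted p = 5.11e-10).

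With hemin alone, 3 of the 39 were called higher and 0 lower, where 1.47% of all genes were called higher and 2.59% lower. These were SESN2 (0.76, edgeR adjusted p = 5.98e-05), the ferritin heavy chain gene FTH1 (0.47, 0.000452) and the cystine transporter gene SLC7A11 (0.18, 0.0321), the last of which was lost without any 1 Ctrl library and without hemin replicate 2 or 3 (0.15 to 0.20, adjusted p 0.0706 to 0.122). Adding hemin to DdBIC gave 16 of the 39 higher and 4 lower, with a median of 0.19, where 13.5% of all genes were called higher and 18.4% lower with a median of -0.01. The largest were TXNIP (-2.67, edgeR adjusted p = 5.65e-08), SESN2 (-1.04, 2.38e-07), the heme transporter gene SLC48A1 (0.50, 0.0438), FTH1 (0.43, 6.13e-05) and the UDP-glucose dehydrogenase gene UGDH (-0.42, 0.000396). The SLC48A1 call was lost in 9 of 20 alternatives, among them those without DdBIC replicate 3 (0.37, adjusted p = 0.137), DdBIC replicate 2 (0.51, 0.0861), any DdBIC+Hemin library (0.46 to 0.53, 0.0704 to 0.109), Ctrl replicate 2 (0.50, 0.0511) and hemin replicate 1 (0.50, 0.0584). With limma on TPM the list had 8 higher and 4 lower. DdBIC against Ctrl and DdBIC+Hemin against DdBIC share the DdBIC libraries.

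Adding DdBIC to hemin gave 2 of the 39 higher and 1 lower, a share of 7.69% beside 6.8% of all genes, namely SESN2 (0.45, edgeR adjusted p = 0.000841), FTH1 (0.24, 0.0122) and the isocitrate dehydrogenase gene IDH1 (-0.21, 0.0242). FTH1 was not called without DdBIC+Hemin replicate 1 (0.21, adjusted p = 0.0541), and IDH1 was not called without any 1 of the 6 libraries compared (-0.21, adjusted p 0.0591 to 0.0803). Without DdBIC+Hemin replicate 1, 1 was called higher and 0 lower. Both agents against Ctrl gave 4 higher and 1 lower, a share of 12.8% beside 12.4% of all genes, and 2 and 1 without DdBIC+Hemin replicate 1. In the interaction 8 were called positive and 3 negative, where 6.40% of all genes were called positive and 10.2% negative. Among the called genes averaging 5 CPM or more, the largest were TXNIP (-2.92, edgeR adjusted p = 9.97e-07), SESN2 (-1.80, 1.92e-07), UGDH (-0.40, 0.00944), the carbonyl reductase gene CBR3 (0.39, 0.0296) and the glutathione reductase gene GSR (0.32, 0.00381). The CBR3 call was lost in 10 of 19 alternatives, 9 of which left out 1 library (0.32 to 0.40, adjusted p 0.0508 to 0.0699; these were Ctrl replicate 2 or 3, DdBIC replicate 1 or 2, any hemin library, or DdBIC+Hemin replicate 1 or 2). The 8 positive calls became 3 without Ctrl replicate 3 or hemin replicate 3, and 4 without Ctrl replicate 2 or hemin replicate 1 or 2, with 3 negative calls in each. The GSR and UGDH calls were lost with limma on TPM (adjusted p = 0.301 and 0.0940).

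Of 13 regulators of the pathway, 46.2% were called with DdBIC alone, where 37.2% of all genes were called. Called higher were MAFK, a small MAF partner of NRF2 (1.16, edgeR adjusted p = 3.15e-05), the repressor gene BACH1 (1.09, 5.59e-05), SQSTM1, whose protein p62 sequesters KEAP1 (1.44, 0.0107), and GSK3B, a kinase that marks NRF2 for degradation (0.20, 0.000377). Called lower were CUL3 (-0.25, 0.0373) and DPP3, a KEAP1-binding peptidase (-0.19, 0.00252). BACH1 went from 33.0 ± 4.87 to 70.1 ± 4.62 CPM (SD, n = 3) with DdBIC, and was at 37.4 ± 0.740 with hemin and at 42.6 ± 6.88 with both. MAFK went from 50.6 ± 4.64 to 113 ± 8.39 CPM, and was at 45.7 ± 4.27 with hemin and 59.9 ± 10.3 with both (SD, n = 3). Both had negative interactions (BACH1 -0.90, edgeR adjusted p = 0.00528, and MAFK -0.77, 0.0104), called in all 19 alternatives. The SQSTM1 libraries were at 269, 316 and 281 CPM in Ctrl and at 969, 499 and 880.0 with DdBIC, a wide spread with no overlap.

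Adding hemin to DdBIC gave calls for 53.8% of the regulators, where 31.9% of all genes were called. The 7 calls became 3 without DdBIC replicate 3 or DdBIC+Hemin replicate 3 and 4 without DdBIC replicate 1 or DdBIC+Hemin replicate 1. It lowered MAFK (-0.92, edgeR adjusted p = 0.000215), BACH1 (-0.72, 0.00119), GSK3B (-0.20, 0.000533) and BACH2, a relative of BACH1 (-0.58, 0.0493), and raised MAFG (1.95, 0.0310), CUL3 (0.28, 0.0222) and NFE2L1, a relative of NRF2 (0.21, 0.0220). MAFG was at 112.6, 30.5 and 116 CPM in Ctrl, at 31.2, 31.5 and 33.1 with DdBIC, at 25.6, 105 and 104 with hemin and at 124, 128 and 119 with both. Its 12 libraries therefore fell at 2 levels, with 1 Ctrl and 1 hemin library at the level of the DdBIC libraries, and its call was lost without any 1 of the 6 libraries compared (1.92 to 1.98, adjusted p 0.0590 to 0.0877). BACH2 was lost without any DdBIC library (-0.65 to -0.45, adjusted p 0.0575 to 0.164) and without 6 further single libraries (-0.61 to -0.43, 0.0579 to 0.164). CUL3 and NFE2L1 were lost without DdBIC replicate 1 or 3 or DdBIC+Hemin replicate 1 or 3 (CUL3 0.21 to 0.27, adjusted p 0.0625 to 0.0891; NFE2L1 0.15 to 0.21, 0.0573 to 0.0716). The lower CUL3 with DdBIC alone was lost without any Ctrl library and without DdBIC replicate 1 or 3 (-0.27 to -0.20, adjusted p 0.0572 to 0.118).

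In Hemin against DdBIC, 2 regulators were called higher and 6 lower, where 18.4% of all genes were called higher and 21.2% lower. SQSTM1 (-1.49, edgeR adjusted p = 0.00843), MAFK (-1.31, 1.29e-05), BACH1 (-0.91, 0.000183) and GSK3B (-0.33, 9.56e-06) were lower in all 20 alternatives, and DPP3 was higher (0.15, 0.00841) but not with limma on TPM (0.08, 0.286). BACH2 (-0.65, 0.0255) was not called without DdBIC replicate 3 or hemin replicate 1 (-0.52 and -0.50, adjusted p 0.0948 and 0.0944) or with limma on TPM (-0.50, 0.0589), and BTRC (-0.18, 0.0140) was not called without DdBIC replicate 1 or hemin replicate 2 (-0.16 and -0.13, 0.0507 and 0.0570) or with upper-quartile normalization (-0.11, 0.102). CUL3 (0.24, 0.0381) was not called without DdBIC replicate 1 or 3 or hemin replicate 2 or 3 (0.20 to 0.25, 0.0761 to 0.121) or with limma on TPM (0.14, 0.612). Elsewhere, GSK3B was lower with hemin (-0.13, edgeR adjusted p = 0.0467) and higher when DdBIC was added to hemin (0.13, 0.0298), and NFE2L1 was higher with both agents than in Ctrl (0.21, 0.0449). Each of these 3 was lost without at least 5 single libraries (adjusted p up to 0.155 for the first, 0.103 for the second and 0.117 for the third). MAFF, at 57.0, 14.4 and 14.7 CPM in Ctrl and 55.3, 92.2 and 131 with DdBIC, spread widely within groups and was not called (1.69, edgeR adjusted p = 0.145), and RBX1, the RING subunit of the CUL3 ligase, NFE2L3 and BTRC, an adaptor of another NRF2 ligase, were not called in the comparisons with Ctrl or between the libraries with both agents and those with one agent.

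The 3 members with the widest range of group means were compared with the 10677 other genes averaging 5 CPM or more, over the 12 libraries. GCLM was most like HMOX1 (Pearson's r of log2 CPM = 0.96), SRXN1 (0.94) and ZNF469 (0.94), the last of which averaged 18.1 CPM in Ctrl and 19.6 in DdBIC, against 32.2 and 36.1 in the groups given hemin without and with DdBIC. TXNRD1 was most like SLC36A1 (0.90), FPGT (0.88) and ATP8A2 (0.87). GCLC was most like REST (0.94), RBM34 (0.93) and RPRD1A (0.92). Among the 9 members, GCLM and SRXN1 had the highest correlation (0.94), NQO1 and OSGIN1 came next (0.82), and KEAP1 and NQO1 the lowest (-0.65). These values describe 12 libraries that share 4 groups, and no test was made of them.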

How the data were processed

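RNA-seq of 12 A375 libraries was analysed. The authors deposited 1 table with, per library, the count of reads per gene (not normalized), a TPM value and an FPKM value (both scaled by the authors for length and depth). The submitters' processing notes name Trim Galore, Subread, featureCounts and hg38, with no versions. Use of strand is not given in the sources used here. Gene positions in the deposited table equalled those of GENCODE 29 for all 9 members.

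Counts were filtered with edgeR's filterByExpr (edgeR 4.0.16, R 4.3.3), scaled by TMM, and fitted with 1 mean per group over all libraries (8 residual degrees of freedom) by the robust quasi-likelihood method. Adjusted p-values are Benjamini-Hochberg values over 14287 genes. The members, the gene lists and the rule for named genes were chosen with earlier results of these data known. The rule names all 9 members, all 13 regulators, and, from the wider list, the 5 genes with the largest called change at a mean of at least 5 CPM in each of 5 comparisons (all but DdBIC+Hemin against Ctrl and Hemin against DdBIC). AL121758.1, AGPS and ZNF469 are named for overlap or likeness. Alternatives were DESeq2 1.42.0, upper-quartile scaling, library size only, no filter, a minimum of 10 counts in each library, separate fits for each pair of groups, blocking on replicate number, omission of each of 12 libraries, limma 3.58.1 on log2(TPM + 1), and, for counts of calls, a minimum absolute log2 fold change of 1. TPM levels compare genes per length. The ratio of count to FPKM was scaled to each library's median gene. The steps were tested on simulated data for DdBIC against Ctrl. They recovered 14.9% of changes of 0.3 on the log2 scale, 73.1% of changes of 0.6 and 92.4% of changes of 1, with 0 in the wrong direction. A member that was not called may therefore still have changed by about 0.3. No columns of the authors' own comparisons were used.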

Additional observations from a re-analysis of the deposited data

Results flagged for a closer look

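The effect of DdBIC differed with and without hemin, by the interaction test of edgeR's quasi-likelihood fit, for 11 genes named above. It was more positive with hemin for NQO1 (by 0.239 on the log2 scale, adjusted p = 0.00709) and SRXN1 (0.213, 0.00785) among the members, and for HMOX1 (1.57, 2.23e-05), CBR3 (0.385, 0.0296), GSR (0.321, 0.00381) and ABCC2 (0.292, 0.00826) beside them. It was more negative for TXNIP (-2.92, 9.97e-07), SESN2 (-1.80, 1.92e-07), UGDH (-0.401, 0.00944), MAFK (-0.775, 0.0104) and BACH1 (-0.895, 0.00528). With limma on log2(TPM + 1) the calls of NQO1 (0.12, adjusted p = 0.741), GSR (0.38, 0.301) and UGDH (-0.53, 0.0940) were lost, and that of CBR3 was lost in 10 of 19 alternatives. CBR3 and GSR were named only because they passed this same test, so the 11 genes are no count over a set chosen beforehand. Of all 14287 genes, 16.6% were called in the interaction. The cause of the differences was not tested.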

How the results depend on the processing

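The 63 results of the 9 members (7 comparisons each) were recomputed under 19 or 20 alternatives, which gave 1202 values with the same call, 42 called results that were no longer called, 7 that became called, and 0 called results of opposite sign. The number of members called fell to 0 in all 7 comparisons when changes also had to reach 1 on the log2 scale. With limma on log2(TPM + 1) it was 0 in DdBIC against Ctrl (1 in the main analysis), 3 in DdBIC+Hemin against DdBIC (5), 1 in DdBIC+Hemin against Hemin (2), 3 in Hemin against DdBIC (5) and 1 in the interaction (2). It was 2 in DdBIC against Ctrl with upper-quartile normalization and 2 in Hemin against Ctrl with DESeq2 (1). In DdBIC+Hemin against Hemin it was 1 with library size only, and fits of only the groups compared gave 1 there and 3 in DdBIC+Hemin against DdBIC. Leaving out 1 library gave 3 to 5 in DdBIC+Hemin against DdBIC, 1 to 2 in DdBIC+Hemin against Hemin and 2 to 3 in the interaction. It also gave 4 to 6 in Hemin against DdBIC and 2 to 3 in DdBIC+Hemin against Ctrl. The count stayed at 1 in DdBIC against Ctrl and in Hemin against Ctrl.

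Deviations of libraries with the same replicate number correlated weakly (-0.139 to 0.132, median 0.0448, with 3 of 18 pairs over 0.1). Pairs with different numbers ran from -0.155 to 0.243 (median -0.0251, with 4 of 36 pairs over 0.1). Of the 12 libraries, 5 were closest to one of their own number. With the number as a replicate block, 3 members were called in DdBIC+Hemin against DdBIC, where TXNRD1 and OSGIN1 were not past the threshold. OSGIN1 was not called in Hemin against DdBIC either (0.38, adjusted p = 0.0541), and calls of CBR3, CUL3, GSK3B, MAFG, NFE2L1, SLC48A1 and SLC7A11 were among those of the lists that were lost. Of the wider list, TALDO1 had the opposite sign on TPM, with 0.029 in place of -0.121 in DdBIC against Ctrl and -0.023 in place of 0.127 in DdBIC+Hemin against DdBIC, neither called. Over all genes, 580 were called in Hemin against Ctrl, 881 with DESeq2, 322 with limma on TPM and 272 to 373 without single Ctrl or hemin libraries, and 971 were called in DdBIC+Hemin against Hemin but 569 in the fit of those groups and 612 to 625 without 1 of 3 single libraries. The causes were not tested. The lowest count of a member was 318 in a library, and the widest intervals were those of NFE2L2 and TXNRD1, whose libraries spread most within groups.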
